A study of Mus musculus with 8 samples.

Results

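Transforming growth factor beta (TGF-beta) signalling was described through 10 genes in retinal pigment epithelium (RPE) eyecups of mice that lack the ciliary gene Bbs8: the ligands Tgfb1, Tgfb2 and Tgfb3, the receptors Tgfbr1, Tgfbr2 and Tgfbr3, and the intracellular mediators Smad2, Smad3, Smad4 and Smad7. The 10 genes were chosen by symbol from the 31053 gene identifiers counted, and all 10 were among the 13813 genes with enough counts to be tested. The data set held 8 libraries of 3′ mRNA sequencing from C57/Bl6 animals at postnatal day 11 (P11), 4 from Bbs8+/+ (wild type) littermates and 4 from Bbs8-/- (knockout) animals, none of them treated. The knockout is present in all cells of the animal and not only in the RPE, and the eyecup keeps choroid and sclera after muscle, fat, cornea, lens, retina and optic nerve are dissected away. Bbs8, listed in the annotation as Ttc8, encodes a subunit of the BBSome, the complex that moves membrane proteins in and out of the primary cilium. The comparison asks which transcripts of the eyecup change when Bbs8 is lost.

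TGF-beta ligands are secreted in a latent form, held in the extracellular matrix by latent TGF-beta binding proteins and fibrillins, and are released by integrins and proteases. The active ligand brings together the type II receptor Tgfbr2 and the type I receptor Tgfbr1, with Tgfbr3 (betaglycan) as a co-receptor that presents above all Tgfb2. The type I receptor then phosphorylates Smad2 and Smad3, which enter the nucleus with Smad4 and bind DNA at short sequences around the letters CAGAC, while Smad7 is induced by the pathway and switches the receptor off. In the eye, Tgfb2 is the abundant isoform of the ocular fluids, and TGF-beta drives RPE cells towards a mesenchymal state and raises the transcription of collagen and elastin genes. Part of the TGF-beta response is relayed at the primary cilium, where its receptors gather.

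The letters that Smads recognise were looked for in the promoters of the 10 genes, in windows of 300 bases that run from 250 bases before to 50 bases after the RefSeq start site (build GRCm38.p6). Windows were at hand for 5 of the 10 genes, 6 windows in all, and 3 of the 6 held CAGAC or its reverse GTCTG. Of all 32851 windows in the table, 49.6% held the motif and 16.2% held it 2 or more times, so a match is common in any promoter. The windows of a ligand gene and a receptor gene are printed with those of a matrix protein of the latent binding list (Ltbp2) and a collagen, both described further on, as examples of windows that hold the motif. The windows of Tgfb1, Smad3, Ltbp4 and Mmp14 held no match and are not printed. Capitals mark each match on either strand, and the sequence is written 5′ to 3′ in the direction of transcription. The Tgfb2 window is chr1:186705940-186706239 on the minus strand with 2 matches. The Tgfbr2 window is chr9:116175314-116175613 on the minus strand with 1 match. The Ltbp2 window is chr12:84876442-84876741 on the minus strand with 3 matches. The Col1a2 window is chr6:4505368-4505667 on the plus strand with 1 match. A match is a description of these letters and not a mapped binding site.
Tgfb2: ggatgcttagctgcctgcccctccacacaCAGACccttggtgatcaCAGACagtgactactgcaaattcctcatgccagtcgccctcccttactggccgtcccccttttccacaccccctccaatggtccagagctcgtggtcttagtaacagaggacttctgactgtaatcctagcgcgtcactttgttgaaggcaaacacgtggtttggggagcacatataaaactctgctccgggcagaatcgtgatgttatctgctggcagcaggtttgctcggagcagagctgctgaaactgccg
Tgfbr2: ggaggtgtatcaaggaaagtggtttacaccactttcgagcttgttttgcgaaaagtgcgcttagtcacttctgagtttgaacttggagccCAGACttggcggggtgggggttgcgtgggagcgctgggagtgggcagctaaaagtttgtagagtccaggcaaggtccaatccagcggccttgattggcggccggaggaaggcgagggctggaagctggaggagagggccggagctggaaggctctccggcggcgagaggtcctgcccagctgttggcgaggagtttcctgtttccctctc
Ltbp2: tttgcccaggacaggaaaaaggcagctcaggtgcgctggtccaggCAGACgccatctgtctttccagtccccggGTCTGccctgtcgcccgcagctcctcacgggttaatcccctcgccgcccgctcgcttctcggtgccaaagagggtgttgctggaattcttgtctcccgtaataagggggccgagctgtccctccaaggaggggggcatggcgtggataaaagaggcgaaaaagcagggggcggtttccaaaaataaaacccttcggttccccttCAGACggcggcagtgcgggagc
Col1a2: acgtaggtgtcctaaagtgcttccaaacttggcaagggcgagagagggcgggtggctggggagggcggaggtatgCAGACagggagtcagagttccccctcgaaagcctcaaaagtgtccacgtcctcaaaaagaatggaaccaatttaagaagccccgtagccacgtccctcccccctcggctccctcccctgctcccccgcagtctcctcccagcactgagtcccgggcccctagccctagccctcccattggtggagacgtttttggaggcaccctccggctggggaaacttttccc

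Levels are CPM, each gene's counts scaled to a common library size with TMM factors, given as mean ± SD with n = 4 libraries per genotype. The libraries held 1636725 to 2884983 gene counts in all, and the 10 genes together held 740 to 1460 counts in each. Because reads come from transcript ends and are not divided by length, levels are compared between genotypes and not between genes. Genotype differences are log2 fold changes of Bbs8-/- over Bbs8+/+ with their standard error (SE), from the edgeR quasi-likelihood test with Benjamini-Hochberg adjustment over all tested genes, and a gene was called at an adjusted p (FDR) under 0.05. Ttc8 itself, chr12:98920574-98983238, was at 14.6, 19.7, 18.2 and 21.6 CPM in Bbs8+/+ and at 9.70, 3.66, 2.29 and 4.20 CPM in Bbs8-/-. It was called lower, with a log2 fold change of -1.95 (SE 0.317, FDR = 2.74e-06), and every Bbs8-/- library stood below every Bbs8+/+ library. The sex of the animals is not given in the labels. Reads of Xist and of Y-linked genes stood in all 8 libraries, with Xist at 640.5 to 746 CPM in Bbs8+/+ and 570 to 625 CPM in Bbs8-/-, and 4 Y-linked genes together at 59.0 to 64.9 and 108 to 119.5 CPM. Sex makeup and genotype therefore cannot be told apart in any gene described here. The study's methods count an animal as 1 replicate, and whether these libraries each hold a single animal was not tested.

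None of the 10 genes was called different between the genotypes with edgeR or with DESeq2, 0 of 10 where edgeR called 2.24% of all tested genes, 1.10% higher and 1.14% lower in Bbs8-/-. Without adjustment, 4 of the 10 genes had a p under 0.05, namely Tgfb3, Tgfbr2, Tgfbr3 and Smad7, and in all 4 the Bbs8-/- mean was the smaller, while DESeq2 gave 2, Tgfb3 and Smad7. Over all tested genes 13.0% passed that unadjusted threshold, 6.60% with the lower mean and 6.38% with the higher mean in Bbs8-/-. Over the 10 genes, 6 fold changes were below 0 and 4 above it, with a median log2 fold change of -0.02, beside a median of -0.0041 over all genes. That median was -0.15 without Bbs8-/- replicate 2 and 0.00039 without Bbs8-/- replicate 1, so its sign and size rest on single libraries. The median size of the log2 fold change, regardless of sign, was 0.29 for the 10 genes, 0.19 for all tested genes and 0.43 for the called genes.

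**Figure D1:**
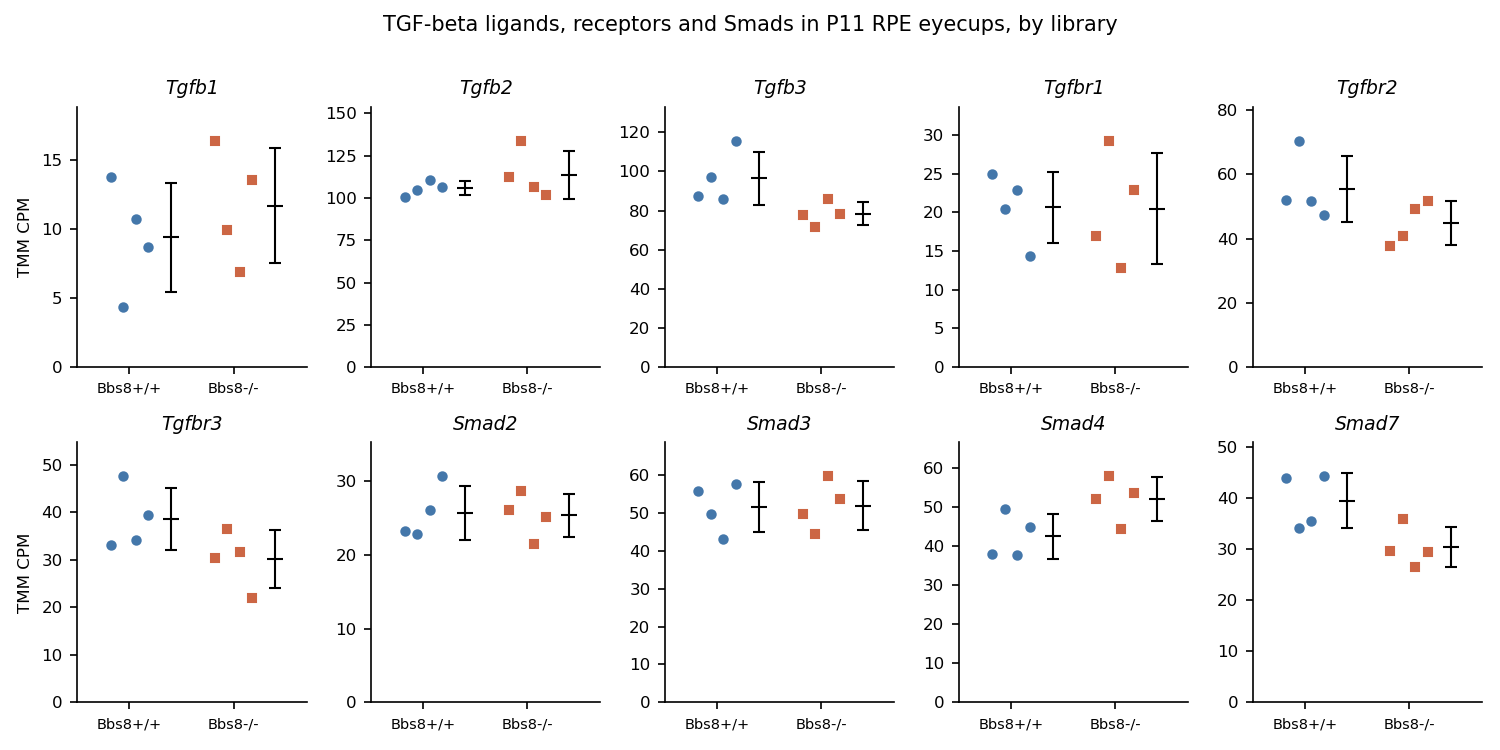
Levels of the 10 TGF-beta genes in TMM CPM (vertical axis, starting at 0, with its own scale for each gene) in the 4 Bbs8+/+ libraries (circles) and the 4 Bbs8-/- libraries (squares), with bars for the mean ± SD. The genotypes overlap for every gene but Tgfb3, where the lowest Bbs8+/+ library stands at 85.92 and the highest Bbs8-/- library at 85.75 CPM, a gap that closes under other scalings.

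Among the ligands, Tgfb3 had the smallest p of the 10 genes, and Tgfb1 and Tgfb2 had higher means in Bbs8-/- with intervals that include 0. Tgfb3 (ENSMUSG00000021253, chr12:86056745-86079041, minus strand) encodes the isoform best known from palate fusion and lung development. It was at 87.5, 97.1, 85.9 and 116 CPM in Bbs8+/+ replicates 1 to 4 and at 77.6, 71.5, 85.8 and 78.4 CPM in Bbs8-/- replicates 1 to 4. Replicate 4 was the highest of the Bbs8+/+ libraries and replicate 3 the highest of the Bbs8-/- libraries, and that replicate almost met the lowest Bbs8+/+ library. The means were 96.5 ± 13.6 and 78.3 ± 5.83 CPM, a log2 fold change of -0.31 (SE 0.112, 95% interval -0.53 to -0.08), which did not pass the edgeR test after adjustment (FDR = 0.160). Without Bbs8+/+ replicate 4, the highest library, the log2 fold change was -0.20 (edgeR FDR = 0.527) and the unadjusted p no longer passed 0.05. Tgfb3 was the 628th gene by p among all tested genes. It was the 1 gene of the 10 whose genotypes did not overlap in TMM CPM, beside 7.38% of all tested genes, 3.76% with the Bbs8-/- libraries below. With RLE size factors its genotypes overlapped, with 85.84 CPM for the lowest Bbs8+/+ and 86.11 CPM for the highest Bbs8-/- library, and with scaling to total counts they overlapped at 85.21 and 85.96 CPM. Tgfb3 lies on the chromosome of the knocked-out gene, 12.8 Mb from Ttc8, and within 15 Mb of Ttc8 2.09% of 191 tested genes were called.

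Tgfb2 (ENSMUSG00000039239, chr1:186622792-186705989, minus strand) was the most evenly measured of the 10 genes in Bbs8+/+, with 101, 105, 111 and 106 CPM. In Bbs8-/- it was at 112, 134, 106 and 102 CPM, so that replicate 2 stood above all other libraries and the genotypes overlapped. The means were 106 ± 4.10 and 114 ± 14.1 CPM, a log2 fold change of 0.10 (95% interval -0.10 to 0.30, edgeR FDR = 0.750), and 0.016 without Bbs8-/- replicate 2. Tgfb1 (ENSMUSG00000002603, chr7:25687002-25705077, plus strand), the isoform made by many immune and stromal cells, rested on 11 to 32 counts per library. It was at 13.8, 4.33, 10.7 and 8.73 CPM in Bbs8+/+ and at 16.4, 9.92, 6.88 and 13.5 CPM in Bbs8-/-. The genotypes overlapped in part, with Bbs8-/- replicate 1 above and Bbs8+/+ replicate 2 below all libraries of the other genotype. Its log2 fold change was 0.31, and the interval from -0.31 to 0.93 was the widest of the 10 genes (edgeR FDR = 0.760). The Tgfb1 value was 0.07 without Bbs8+/+ replicate 2 and 0.55 without Bbs8+/+ replicate 1. The spread of Tgfb1 in Bbs8+/+, a coefficient of variation of 42.2%, was above the 21.0% that counting error alone gives.

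The 3 ligands were also compared as shares of their summed counts within each library, a measure that does not depend on the scaling between libraries. Tgfb3 took 41.4% to 50.1% of the ligand counts in Bbs8+/+ (45.5% ± 3.87) and 33.3% to 43.1% in Bbs8-/- (38.6% ± 4.21), and Tgfb2 took 46.1% to 53.4% (50.0% ± 2.99) and 52.5% to 62.1% (55.6% ± 4.40). The genotypes overlapped in both shares. The extremes for Tgfb3 were Bbs8+/+ replicate 4 at 50.1% of 661 counts (exact 95% binomial interval 46.2% to 54.0%) and Bbs8-/- replicate 2 at 33.3% of 412 counts (28.7% to 38.0%), intervals that cover counting error only. Tgfb1 took the rest, 2.10% to 6.82% in Bbs8+/+ and 3.46% to 7.94% in Bbs8-/-. These shares are of 3′ reads and are not corrected for how well each transcript end is read.

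None of the 3 receptors passed the adjusted test, with means that were close for the type I receptor Tgfbr1 and smaller in Bbs8-/- for Tgfbr2 and Tgfbr3, and differences between the receptors were not tested. Tgfbr2 (ENSMUSG00000032440, chr9:116084293-116175360, minus strand), whose promoter window is printed above, was at 52.1, 70.4, 51.8 and 47.5 CPM in Bbs8+/+ and at 37.6, 40.7, 49.1 and 51.8 CPM in Bbs8-/-. Replicate 2 was well above the other Bbs8+/+ libraries, and Bbs8-/- replicates 3 and 4 lay within the Bbs8+/+ range. The log2 fold change was -0.30 (SE 0.145, interval -0.58 to -0.01, edgeR FDR = 0.362), and it was -0.16 without Bbs8+/+ replicate 2. Tgfbr3 (ENSMUSG00000029287, chr5:107106570-107289629, minus strand) was at 33.2, 47.6, 34.1 and 39.4 CPM in Bbs8+/+ and at 30.3, 36.5, 31.6 and 21.9 CPM in Bbs8-/-. Only Bbs8-/- replicate 2 reached into the Bbs8+/+ range. Its log2 fold change was -0.37 (SE 0.173, interval -0.71 to -0.03, edgeR FDR = 0.340), and leaving out each library in turn gave -0.47 to -0.23, the smallest in size without Bbs8-/- replicate 4. Tgfbr1 (ENSMUSG00000007613, chr4:47353222-47414931, plus strand) was at 25.0, 20.4, 22.9 and 14.3 CPM in Bbs8+/+ and at 17.0, 29.2, 12.8 and 22.9 CPM in Bbs8-/-. The Bbs8-/- libraries held both the lowest and the highest value of Tgfbr1, the means were 20.7 ± 4.62 and 20.5 ± 7.14 CPM, and the interval of the log2 fold change ran from -0.45 to 0.45 (edgeR FDR = 0.999).

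Of the Smads, the receptor-activated Smad2 and Smad3 had close means in both genotypes, the common partner Smad4 had a higher mean in Bbs8-/-, and the inhibitor Smad7 had a lower one, again with no call. Smad2 (ENSMUSG00000024563, chr18:76241580-76310963, plus strand) was at 23.3, 22.8, 26.2 and 30.7 CPM in Bbs8+/+ and at 26.1, 28.7, 21.6 and 25.2 CPM in Bbs8-/-. The Smad2 means of 25.7 ± 3.64 and 25.4 ± 2.96 CPM differed by less than 1 SD, and the interval of the log2 fold change was -0.42 to 0.36 (edgeR FDR = 0.975). Smad3 (ENSMUSG00000032402, chr9:63646767-63757994, minus strand) was at 55.6, 49.5, 43.0 and 57.6 CPM in Bbs8+/+ and at 49.7, 44.4, 59.6 and 53.7 CPM in Bbs8-/-. Its means of 51.4 ± 6.59 and 51.9 ± 6.43 CPM gave a log2 fold change of 0.01 with an interval of -0.27 to 0.29 (edgeR FDR = 0.985). For both genes the libraries of the genotypes were interleaved, and differences within those intervals were not detectable in these libraries.

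Smad4 (ENSMUSG00000024515, chr18:73639009-73703780, minus strand) was at 37.9, 49.5, 37.8 and 45.0 CPM in Bbs8+/+ and at 52.2, 57.9, 44.5 and 53.7 CPM in Bbs8-/-. All Bbs8-/- libraries but replicate 3 were above the whole Bbs8+/+ range. The log2 fold change was 0.28 (SE 0.146, interval -0.01 to 0.57), with an edgeR unadjusted p of 0.0563 and an FDR of 0.403. Smad7 (ENSMUSG00000025880, chr18:75367529-75395935, plus strand) was at 43.9, 34.2, 35.5 and 44.3 CPM in Bbs8+/+ and at 29.7, 36.0, 26.6 and 29.4 CPM in Bbs8-/-. Here 1 library, Bbs8-/- replicate 2, lay above the lowest Bbs8+/+ libraries. Smad7 had the largest fold change of the 10 genes in size, -0.38 (SE 0.169, interval -0.72 to -0.05), and did not pass after adjustment (edgeR FDR = 0.294).

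**Figure D2:**
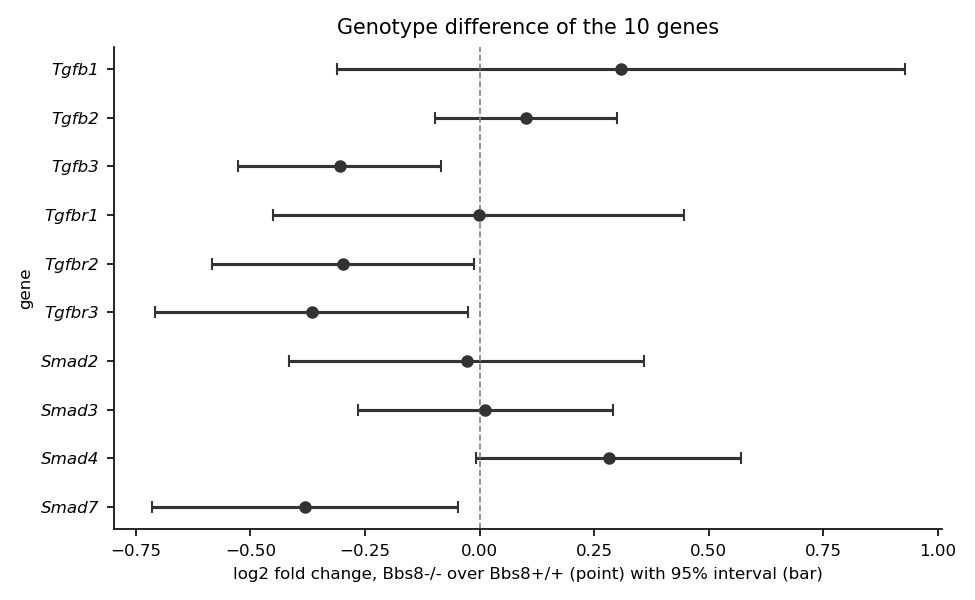
Log2 fold change of Bbs8-/- over Bbs8+/+ (horizontal axis) for each of the 10 genes, with points for the estimate and bars for its 95% interval. The intervals of Tgfb3, Tgfbr2, Tgfbr3 and Smad7 lie below 0 before any adjustment, and the interval of Tgfb1, from -0.31 to 0.93, is the widest.

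The 10 genes had means from 10.5 to 110 CPM, and within that range 129 of 7416 tested genes (1.74%) were called, the smallest with a log2 fold change of 0.37 in size and the median of them at 0.64. The SEs of the 10 genes ran from 0.100 to 0.313. Of the 10 genes, Tgfb3 shares 257 exonic bases with the antisense transcript Gm48008 and 163 with Gm37804, Tgfb2 shares 124 with Gm29491, and Tgfbr3 shares 297 with Gm43422 on its own strand, so reads there are uncertain. In 17 of the 20 groups (10 genes in each genotype) the spread between libraries was above what counting error alone gives. Of the 10 genes, Smad7 alone had a fold change larger in size than that smallest called one.

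Around the 10 genes, 5 lists of the pathway were described, 115 different genes of which 107 were tested. Of these, 13 genes (12.1%) were called, 2 higher and 11 lower in Bbs8-/-, beside the 2.24% of all tested genes. The lists were written with earlier results of these data known, and the shares are not matched for abundance. Their difference is a description and not a test. Genotypes did not overlap in TMM CPM for 19 of the 107 genes, all 13 called ones among them, beside 7.38% of all tested genes. The log2 fold changes of the 13 called genes were 0.21 to 0.80 in size. Over the 107 genes the median log2 fold change was -0.07, with 65 below 0. The lower calls were Ltbp2, Ltbp4, Fbn2, Mmp14, Pmepa1, Zeb2, Tsc22d1, Col1a1, Col1a2, Col3a1 and Eln, the higher calls were Bgn and Id1, and no receptor of these lists was called.

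**Figure D3:**
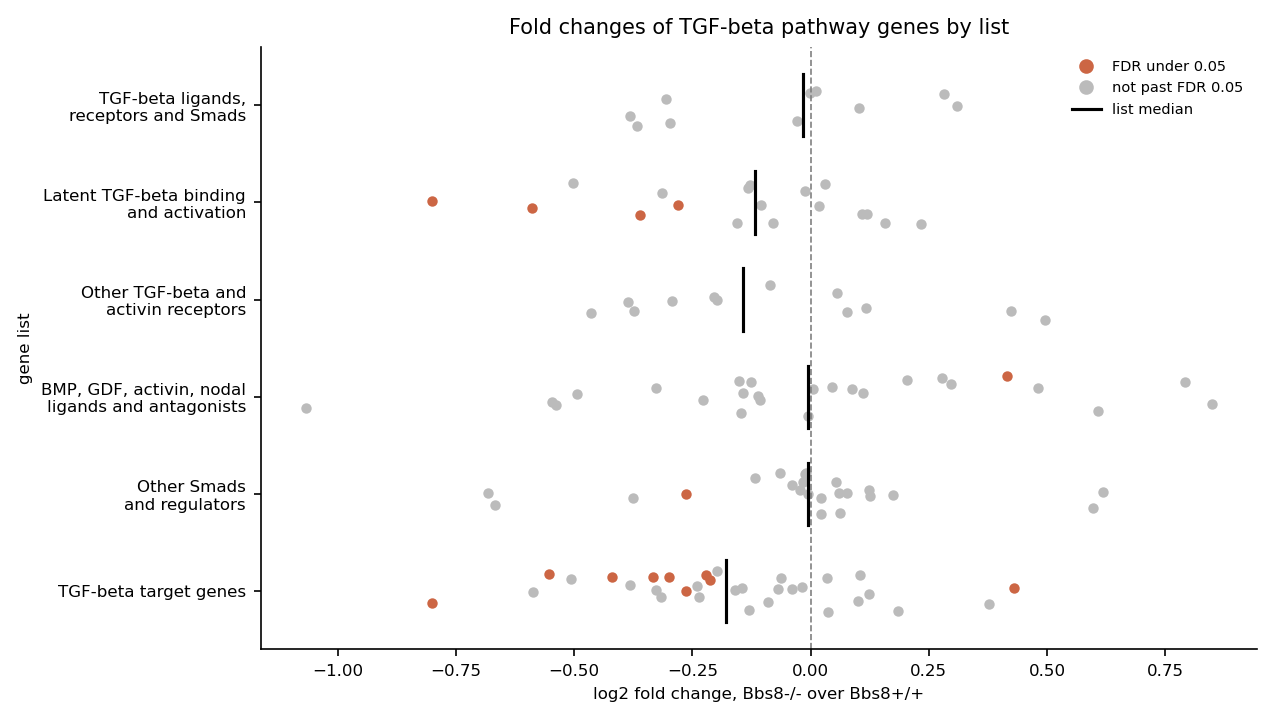
Log2 fold change of Bbs8-/- over Bbs8+/+ (horizontal axis) for each tested gene of the 10 TGF-beta genes and of 5 pathway lists (rows), with genes past FDR 0.05 in colour and a black line at each list's median. The called genes of the latent binding list all lie below 0, the target list has 8 called genes below 0 and 1 above, and the top row and the row of other receptors have none. A gene on several lists is drawn in each.

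Latent TGF-beta binding and activation was the list closest to the ligands, and 4 of its 18 tested genes were called, all 4 lower in Bbs8-/-, with a list median of -0.12. Ltbp4, a latent TGF-beta binding protein that also guides elastic fibre assembly, was at 78.4, 84.5, 72.4 and 73.6 CPM in Bbs8+/+ and at 48.5, 55.3, 51.4 and 50.0 CPM in Bbs8-/-. The gap between the groups was wider than the spread within either, and Ltbp4 fell by 0.59 on the log2 scale (SE 0.127, edgeR FDR = 0.00103). Ltbp2, a relative that binds elastic fibres and is not thought to hold TGF-beta itself, was at 28.9, 20.1, 19.6 and 24.8 CPM in Bbs8+/+ and at 10.3, 14.6, 13.8 and 14.5 CPM in Bbs8-/-. It fell by 0.80 on the log2 scale (SE 0.233, edgeR FDR = 0.0381) on 17 to 71 counts per library. Leaving out any library except Bbs8+/+ replicate 2 or replicate 3 ended the Ltbp2 call, with an edgeR FDR of up to 0.171 without Bbs8+/+ replicate 1, and DESeq2 gave an adjusted p of 0.0765. Its first exon shares 764 bases with an antisense transcript, D030025P21Rik, and the gene lies 14.0 Mb from Ttc8, within the 15 Mb described for Tgfb3.

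Fbn2, the fibrillin of developing microfibrils, was at 225, 218, 208 and 210.5 CPM in Bbs8+/+ and at 198, 170, 183 and 159 CPM in Bbs8-/-. It fell by 0.28 on the log2 scale (SE 0.0798, edgeR FDR = 0.0327), a call that ended without Bbs8+/+ replicate 1 or 2 or Bbs8-/- replicate 2, 3 or 4 (FDR up to 0.205, without Bbs8-/- replicate 4). Mmp14, a membrane-bound matrix protease that can release latent TGF-beta, was at 211, 237, 198 and 207 CPM in Bbs8+/+ and at 158, 184, 161 and 161 CPM in Bbs8-/-. It fell by 0.36 on the log2 scale (SE 0.0812, edgeR FDR = 0.00210), with an FDR of 0.0520 when Bbs8+/+ replicate 2, its highest library, was left out. The next genes of the list by p did not pass the edgeR test: the integrin Itgav, whose dimers activate latent TGF-beta, had a log2 fold change of 0.23 (FDR = 0.262), the fibrillin Fbn1 -0.13 (FDR = 0.294) and the integrin Itgb8 -0.13 (FDR = 0.418).

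The other TGF-beta and activin receptors and co-receptors gave no call among 12 tested genes of 14 with edgeR or DESeq2, with 1 gene at an unadjusted edgeR p under 0.05 and a median log2 fold change of -0.14 that was -0.018 without Bbs8-/- replicate 2 and -0.063 without Bbs8+/+ replicate 1. The first by p were Rgmb, a BMP co-receptor, at -0.46 (edgeR FDR = 0.375), the activin receptor Acvr2b at -0.37 (FDR = 0.432) and the BMP and activin type I receptor Acvr1 at -0.39 (FDR = 0.522). Among BMP, GDF, activin and nodal ligands and their antagonists, 1 of 25 tested genes of 29 was called, and the median of -0.0062 changed sign with single libraries, from 0.079 without Bbs8-/- replicate 3 to -0.069 without Bbs8-/- replicate 4, and was -0.072 with no filter on low counts. That gene was Bgn, biglycan, a small matrix proteoglycan that binds TGF-beta and BMPs. Bgn was at 1007, 984, 1083 and 1017 CPM in Bbs8+/+ and at 1425, 1284, 1293 and 1455 CPM in Bbs8-/-, and it rose by 0.42 on the log2 scale (SE 0.0483, edgeR FDR = 1.27e-11). Its close relative Dcn, decorin, had a log2 fold change of 0.09 (FDR = 0.174), and the BMP antagonists Nog and Chrdl1 had -0.55 (FDR = 0.209) and 0.79 (FDR = 0.271). Bgn and Chrdl1 lie on the X chromosome.

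Of the other Smads and the regulators of Smad signalling, 1 of 23 tested genes of 24 was called, and the median log2 fold change of -0.0058 lay between -0.018 (without Bbs8-/- replicate 1) and 0.052 (without Bbs8-/- replicate 4) when 1 library was left out. Pmepa1, a TGF-beta-induced membrane protein that keeps Smads from the receptor, was at 235, 268, 254 and 258 CPM in Bbs8+/+ and at 230.5, 193, 212 and 212 CPM in Bbs8-/-. Pmepa1 fell by 0.26 on the log2 scale (SE 0.0748, edgeR FDR = 0.0324), and its highest Bbs8-/- library, replicate 1, came close to its lowest Bbs8+/+ library. The call ended without any 1 library other than Bbs8+/+ replicate 1 or Bbs8-/- replicate 1 (FDR up to 0.167, without Bbs8-/- replicate 2). The corepressor Tgif2 had a log2 fold change of -0.68 (edgeR FDR = 0.399), the kinase adaptor Tab1 0.62 (FDR = 0.449) and Zfyve9, which brings Smads to the receptor, 0.17 (FDR = 0.579).

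TGF-beta target genes held the most calls, 9 of 32 tested genes of 33, with 8 lower and 1 higher in Bbs8-/-, a median of -0.18 and 24 fold changes below 0. Among them, 4 genes code for fibrillar collagens and elastin. Col1a2, whose promoter window is printed above, was at 15220, 14940, 14290 and 15930 CPM in Bbs8+/+ and at 10140, 10280, 10080 and 10680 CPM in Bbs8-/-, and it fell by 0.55 on the log2 scale (SE 0.0286, edgeR FDR = 1.55e-36). Its partner chain Col1a1 was at 11620, 11710, 11880 and 11580 CPM in Bbs8+/+ and at 8385, 8667, 8723 and 9174 CPM in Bbs8-/-, a fall of 0.42 (edgeR FDR = 1.96e-25). Both chains of type I collagen were thus lower in every Bbs8-/- library than in any Bbs8+/+ library. Col3a1 was at 2096, 2190, 2125 and 2148 CPM against 1840, 1861, 1868 and 1814 CPM and fell by 0.21 (edgeR FDR = 0.000170). Eln, elastin, was at 494, 482, 473 and 506 CPM against 378, 405, 374 and 395.5 CPM and fell by 0.33 (edgeR FDR = 4.71e-05). These 4 calls, with those of Ltbp4 and Bgn, held under all 14 alternatives run, 6 of the 13 called pathway genes.

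Of the other called targets, Zeb2, Tsc22d1 and Id1 are transcription regulators. Zeb2, a repressor of epithelial genes that binds Smads, was at 275, 230, 242 and 270 CPM in Bbs8+/+ and at 203, 184, 220 and 218 CPM in Bbs8-/-. It fell by 0.30 on the log2 scale (SE 0.0760, edgeR FDR = 0.00996), a call that ended without Bbs8+/+ replicate 1 or 4 or Bbs8-/- replicate 1 or 2 (FDR up to 0.102, without Bbs8-/- replicate 2). Zeb2 shares 653 exonic bases with the antisense transcript Zeb2os, and of the other called genes Eln and Fbn2 also share exonic bases with antisense transcripts and Col3a1 shares 141 with a transcript on its own strand (Gm47302). Tsc22d1, a leucine zipper protein first found as TGF-beta-stimulated, was at 401.5, 445, 474 and 403 CPM in Bbs8+/+ and at 400.3, 347, 349 and 382 CPM in Bbs8-/-, and with scaling to total counts its genotypes overlapped, at 400 and 403 CPM for the nearest libraries. It fell by 0.22 (SE 0.0643, edgeR FDR = 0.0379), a call that ended without replicate 2 or 3 of either genotype (FDR up to 0.186, without Bbs8-/- replicate 3), and DESeq2 gave an adjusted p of 0.0789. Id1, an inhibitor of helix-loop-helix factors and a classic target of BMP signalling, was the 1 target called higher. Id1 was at 60.3, 56.2, 69.1 and 55.8 CPM in Bbs8+/+ and at 84.3, 69.4, 82.5 and 87.8 CPM in Bbs8-/-, a rise of 0.43 on the log2 scale (SE 0.122, edgeR FDR = 0.0324), and its call ended without any 1 library other than Bbs8+/+ replicate 3 or Bbs8-/- replicate 2 (FDR up to 0.147, without Bbs8-/- replicate 4). Ltbp2 and Pmepa1, described above, complete the list's calls. Next by p came Postn, periostin, at -0.24 (edgeR FDR = 0.0843), Snai2, a relative of Snail, at -0.59 (FDR = 0.268), and Smad7.

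**Figure D4:**
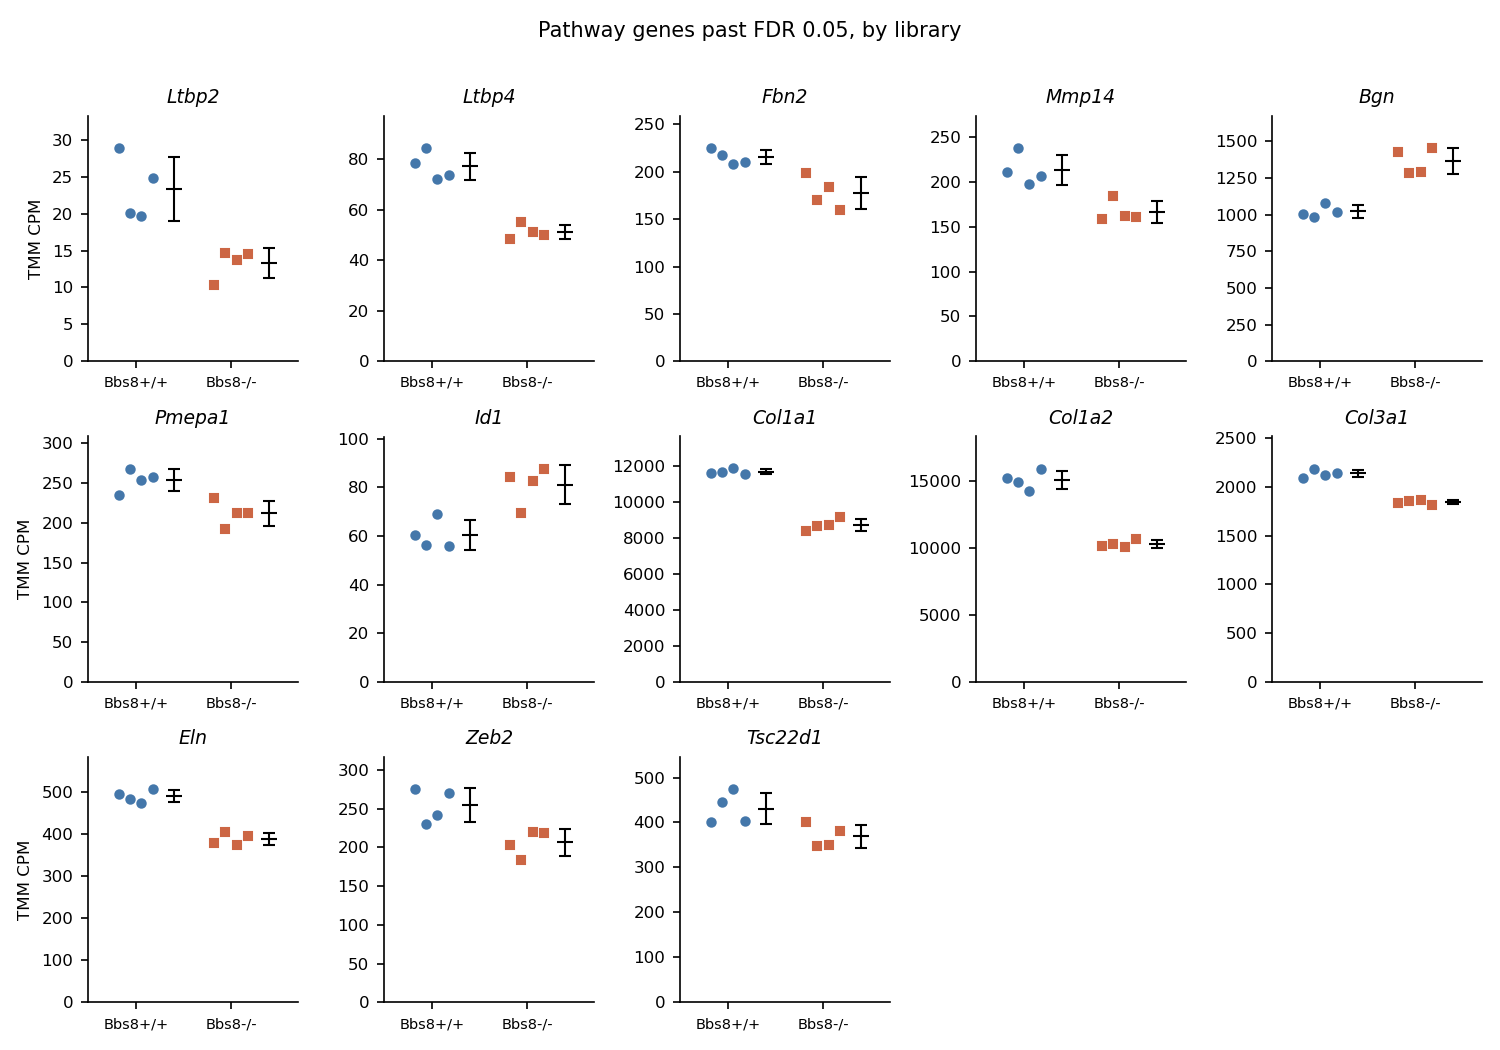
Levels in TMM CPM (vertical axis, starting at 0, with its own scale for each gene) of the 13 called pathway genes in the 4 Bbs8+/+ libraries (circles) and the 4 Bbs8-/- libraries (squares), with bars for the mean ± SD. No gene has overlapping genotypes on this scale, Bgn and Id1 are higher in Bbs8-/-, and the nearest libraries of the genotypes almost meet for Tsc22d1 and Id1.

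Several cell types of the eyecup express these genes, and in bulk libraries fewer cells of a type and less RNA per cell cannot be told apart. RPE markers, among them Rpe65 and Rlbp1, were present in all libraries, their 12 genes summing to 18180 to 19280 CPM in Bbs8+/+ and 19600 to 19950 CPM in Bbs8-/-, 5.09% more (two-sided exact permutation p = 0.0286, the smallest that 4 against 4 libraries allow). Of the 12 RPE markers, Otx2 was called higher and Mitf lower in Bbs8-/-. The markers of fibroblasts, sclera and choroid stroma, which make most of the collagen, summed to 35270 to 36980 CPM in Bbs8+/+ and 27860 to 29060 CPM in Bbs8-/- (exact permutation p = 0.0286). Of those 12 markers, 4 collagen genes were called lower, among them Col1a1, Col1a2 and Col3a1, and Thy1 was called higher. The target list shares 3 genes with these markers (Col1a1, Col1a2 and Col3a1) and 3 with the pericyte and smooth muscle markers (Tagln, Acta2 and Cnn1). Without Col1a1 and Col1a2 the list summed to 9108 to 9540 CPM and 9207 to 9618 CPM, ranges that overlap (exact permutation p = 0.857). Most of that sum was Dcn, with means of 5884 CPM in Bbs8+/+ and 6250 CPM in Bbs8-/-. Col3a1, also in the sum, had means of 2140 and 1846 CPM. The genes left out were themselves called lower, so this sum cannot show whether the stromal content differs. None of these stromal markers was at 0 in either genotype, and their part in the values of the pathway genes was not tested.

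Other marker lists also moved with genotype, each without overlap and at the smallest exact permutation p. Pericyte and smooth muscle markers summed to less in Bbs8-/-, 1177 to 1251 CPM against 1318 to 1384 CPM, with 2 of 10 genes called lower (Rgs5 and Notch3). Of the 10 genes, 7 fold changes were below 0 and 3 above it. Acta2, not called, was higher without overlap, at 263 to 282 CPM in Bbs8-/- against 243 to 261 CPM in Bbs8+/+. Macrophage and microglia markers, of a cell type that makes Tgfb1, summed to 538 to 592 CPM against 463 to 510.4 CPM, with 1 of 12 called higher (Csf1r). Choroidal melanocyte markers were lower, 11380 to 12000 CPM against 13820 to 14530 CPM, with 7 of 9 called. Tissues meant to be dissected away moved too: lens markers summed to 629 to 669 CPM against 224 to 263 CPM with 12 of 18 called higher, photoreceptor markers to 363 to 412 CPM against 468 to 513 CPM with 2 of 14 called lower, and muscle markers to 3374 to 3562 CPM against 3110 to 3273 CPM with 1 of 12 tested called higher. Photoreceptor markers had 9 fold changes below 0 and 5 above it, from -0.86 to 2.08 on the log2 scale. Muscle markers had 5 below 0 and 7 above it. Myelinating glia markers were at 396 to 486 CPM against 507.5 to 577 CPM with 3 of 8 tested called lower and Mog at 0 in all Bbs8-/- libraries. Surface epithelium markers were at 0.467 to 1.38 CPM against 15.7 to 21.9 CPM, with all 3 tested called lower and 6 keratins (Krt5, Krt14, Krt12, Krt6a, Krt13 and Krt4) at 0 in all Bbs8-/- libraries, of which Krt14 was also at 0 in all Bbs8+/+ libraries. Endothelial markers, 1110 to 1222 CPM in Bbs8-/- and 1130 to 1191 CPM in Bbs8+/+, overlapped (exact permutation p = 0.8), with 1 of 12 genes called higher (Egfl7). The part of these lists in the levels of the 10 TGF-beta genes was not tested.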

How the data were processed

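Eyecups were taken from P11 Bbs8+/+ and Bbs8-/- mice, 4 libraries each, and prepared from total RNA with a QuantSeq 3′ FWD kit. The deposited values are unnormalized whole counts for each gene, from reads with a single alignment, which the authors made by trimming with BBDuk, aligning with STAR to mm10 and counting with htseq-count. Whether counting used strand is not given in the sources used here and no molecular identifiers were named, so genes with antisense overlap are uncertain. The binomial intervals of count shares cover counting error only, while SEs and intervals of fold changes include the spread between libraries. Reads that the counter listed as outside genes, ambiguous or aligned several times, 57.5% to 59.3% of those in a file, were left out. The level of 3 counts was 1.05 to 1.82 CPM, and no files held identical values.

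Symbols and 1-based mm10 positions came from GENCODE M21, in which 119 identifiers had no entry. Genes that reached 1 CPM in 4 or more libraries entered the test in edgeR 4.0.16 (R 4.3.3): TMM factors, a quasi-likelihood F test with genotype as the only term, two-sided, with Benjamini-Hochberg adjustment over all tested genes. The study's methods also name edgeR models, a 1 CPM filter and FDR 0.05, and their further filter on multi-mapped reads was not applied here. Simulated counts with known changes served as a test of the fit. Summed marker levels were set against each other with an exact permutation test (two-sided). The labels call the libraries biological replicates and the study's methods count an animal as 1 replicate, but Xist and Y-linked reads stood together in every library. Whether each library holds 1 animal was not tested. The p-values therefore measure the spread between these libraries, which may not be the spread between animals. Promoter windows came from RefSeq (GRCm38.p6).

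The 10 genes and all lists were chosen with earlier results of these data known. The genes named are all 10, each listed gene past FDR 0.05, the next 3 by p in each list, Ttc8, and marker genes that stand beside them. The fit was repeated with DESeq2 1.42.0, with RLE size factors, with total counts as the scale, with no filter or filterByExpr, with a replicate block, and without each library in turn.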

Additional observations from a re-analysis of the deposited data

Results flagged for a closer look

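In 100 groups of 4 libraries checked, a single library stood apart from the other 3 by Dixon's criterion in 4, where chance gives about 5. Mmp14 was at 184.3 CPM in Bbs8-/- replicate 2 and at 158.3 to 161.4 CPM in the other Bbs8-/- libraries. Nog, a BMP antagonist, was at 27.29 CPM in Bbs8-/- replicate 1 and at 14.94 to 16.97 CPM in the others. The summed pericyte and smooth muscle markers were at 1177 CPM in Bbs8-/- replicate 3 and at 1239 to 1251 CPM in the others. The summed surface epithelium markers were at 21.95 CPM in Bbs8+/+ replicate 3 and at 15.71 to 15.94 CPM in the others. None of the 10 TGF-beta genes had a library that stood apart in this way.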

How the results depend on the processing

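None of the 10 TGF-beta genes was called under any of the 14 alternatives, and the lowest FDR any of them reached was 0.0916, for Tgfb3 without Bbs8+/+ replicate 3, a gene whose FDR was 0.527 without Bbs8+/+ replicate 4. The sign of Tgfb1, Tgfb2, Tgfb3, Tgfbr2, Tgfbr3, Smad4 and Smad7 was the same in all 14. Genes near no difference changed sign: Tgfbr1 had a log2 fold change of 0.0014 with RLE size factors, 0.0026 with filterByExpr and -0.22 to 0.18 when 1 library was left out, Smad2 had -0.091 to 0.077 and Smad3 -0.063 to 0.083 when 1 library was left out, and the cause was not tested. Genes of the 10 with an unadjusted p under 0.05 numbered 2 with DESeq2 (Tgfb3 and Smad7), 3 with the replicate block, and 2 to 4 when 1 library was left out. They then included Smad4, higher in Bbs8-/-, without Bbs8+/+ replicate 2, Bbs8+/+ replicate 4 or Bbs8-/- replicate 3.

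Over all genes, 152 were called higher and 157 lower, with 114 to 172 higher and 101 to 150 lower when 1 library was left out, fewest lower without Bbs8-/- replicate 1 (101). The called genes in the latent binding list went from 4 to between 2 and 4, those of the other Smads and regulators from 1 to between 0 and 1, and those of the target list from 9 to between 5 and 7 when 1 library was left out, a setting with fewer samples. Same-numbered libraries did not deviate together (correlations of 0.0196, 0.00339, -0.0501 and -0.056 over 6626 genes), so the replicate numbers were taken as names only. With them as a block in the fit, 134 genes were called higher and 129 lower. That fit gave 2 calls in the latent binding list, 0 among the other Smads and regulators and 6 in the target list. The calls of Ltbp2 (edgeR FDR = 0.0558), Fbn2 (0.0515), Pmepa1 (0.0608) and Tsc22d1 (0.0742) ended with the block. Of the 13 called pathway genes, 6 were called under all 14 alternatives and none changed sign. The counts were lowest for Tgfb1, 11 to 32 per library, and for Tgfbr1, 28 to 58.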
